A study of Mus musculus with 12 samples.

Results

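The genes described are those of cytochrome P450 families 1 to 4, taken as every gene of the deposited table whose symbol is Cyp, a family number from 1 to 4, a subfamily letter and a gene number. The rule gave 72 of 37583 genes, of which 60 had reads in at least 1 library and 12 had none. Names ending in -ps (7 pseudogenes) and 5 genes whose names carry a further letter, such as Cyp2ab1 and Cyp4a12a, fell outside it. Blood was taken from wild-type mice after burn/tenotomy, a burn combined with the cutting of a tendon, and was sorted on the iChip, a microfluidic device that enriches rare cells from whole blood. The labels call the material cMPCs and blood cells, and the series title links it to HO. The 3 groups of 4 libraries are 6h, Day1 and Day7 after the injury, all wild type and all injured. Nothing in the labels ties a replicate to its own animal, so the p-values rest on the spread between libraries, part of which may be technical. Uninjured mice were not analysed here.

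Cytochrome P450 enzymes are haem proteins that insert an oxygen atom into their substrate, with electrons passed on by P450 reductase and cytochrome b5. Families 1 to 3 oxidise drugs, plant compounds, steroids and bile acids, and most of their members are made chiefly in hepatocytes. Family 4 hydroxylates the ends of fatty acids and of eicosanoids such as leukotrienes. Cyp2e1, which oxidises ethanol and small solvents, is one of the most abundant P450 mRNAs of the liver, and some members, such as Cyp2s1, Cyp1b1 and Cyp4f18, are known mainly from epithelia, stroma or leukocytes.

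The 4 sequences below show the DNA just before the transcription start of Cyp2e1, which had the most reads of the 72 genes, of Cyp3a11 and Cyp2c69, which are hepatic genes of other subfamilies, and of Cyp2s1, whose time course differed from theirs. Each holds the 250 bases before the start in RefSeq's annotation of GRCm38.p6, which is not the mm9 build listed for the deposited table. Capitals mark matches, on either strand, to any of the 5 motifs searched.

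Cyp2e1 (chr7:140763569-140763818, plus strand): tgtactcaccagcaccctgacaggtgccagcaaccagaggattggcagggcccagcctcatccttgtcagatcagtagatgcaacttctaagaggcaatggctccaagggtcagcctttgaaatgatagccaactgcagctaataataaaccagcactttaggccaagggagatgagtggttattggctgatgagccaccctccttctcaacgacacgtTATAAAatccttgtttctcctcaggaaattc
Cyp3a11 (chr5:145879855-145880104, minus strand): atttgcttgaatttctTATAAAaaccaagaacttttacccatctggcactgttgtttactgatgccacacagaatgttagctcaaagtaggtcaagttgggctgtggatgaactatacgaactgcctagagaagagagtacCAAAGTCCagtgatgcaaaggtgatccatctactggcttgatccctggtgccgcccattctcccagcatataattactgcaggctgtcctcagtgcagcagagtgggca
Cyp2c69 (chr19:39886770-39887019, minus strand): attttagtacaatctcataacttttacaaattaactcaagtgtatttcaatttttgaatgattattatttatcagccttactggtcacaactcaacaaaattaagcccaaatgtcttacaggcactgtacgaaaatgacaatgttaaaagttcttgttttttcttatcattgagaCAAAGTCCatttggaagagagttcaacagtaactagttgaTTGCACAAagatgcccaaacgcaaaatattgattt
Cyp2s1 (chr7:25816526-25816775, minus strand): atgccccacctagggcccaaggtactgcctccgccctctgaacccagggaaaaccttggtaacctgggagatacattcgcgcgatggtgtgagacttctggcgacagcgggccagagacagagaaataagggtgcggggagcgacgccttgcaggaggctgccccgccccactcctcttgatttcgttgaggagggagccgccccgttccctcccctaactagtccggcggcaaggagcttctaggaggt

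The motifs were TATAAA (the TATA box), CAAAGTCC (core of an HNF4 element), TTGCNNAA (C/EBP), GCGTG (core of the dioxin response element) and TTATGTAA (D box). None of them lies within another. Cyp2e1 held TATAAA starting 31 bases before its start. In Cyp3a11 the HNF4 core began 109 bases before the start, and in Cyp2c69 it began 75 bases before. Cyp3a11 also held TATAAA starting 234 bases before its start, and Cyp2c69 held TTGCNNAA starting 35 bases before. The 50 bases after the start of Cyp2c69, which are not printed, held TATAAA as well. A match shows the letters only and not that they act as a TATA box or other site. No motif was found in the 250 bases of Cyp2s1, which says only that these letters are not in that window. RefSeq windows of 300 bases (250 before and 50 after the start) were at hand for 67 starts of 60 of the 72 genes. TATAAA was found in 40.3% of these and in 13.6% of all 32851 such windows, and CAAAGTCC in 17.9% against 1.42%. TTGCNNAA was found in 28.4% against 10.8%, GCGTG in 20.9% against 32.4%, and TTATGTAA in 0 of 67 against 0.938%. Related P450 genes share sequence, so these windows are not independent of each other. The genes also sit together on the chromosomes, with 14 of the 60 on chromosome 7, 13 on chromosome 19 (all of subfamily 2c) and 7 genes of subfamily 3a on chromosome 5.

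The libraries held 5098395 to 12379041 reads, with 7631 to 16647 genes detected. Haemoglobin genes took 16.1% to 70.3% of the reads. Values are given as deposited, which are reads scaled by a factor that the authors set for each library, and 1 read is worth 0.0314 (Day1 replicate 2) to 0.617 (Day7 replicate 3). Y-linked reads (Ddx3y, Eif2s3y, Kdm5d and Uty summed) were present in 6h replicates 3 and 4 (76 reads each) and in Day1 replicates 2, 3 and 4 (603, 422 and 853 reads). They were at 0 in the other 7 libraries, including all of Day7. In such bulk samples, fewer cells of a type and less RNA per cell cannot be told apart.

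P450 reads were few at 6h, more at Day1, and very uneven at Day7. The 72 genes together had 1030, 114, 308 and 1450 reads in 6h replicates 1 to 4. In Day1 replicates 1 to 4 they had 1059, 12274, 4769 and 23907 reads. In Day7 replicates 1 to 4 they had 57799, 332, 91 and 2010 reads, so that 1 library of the 12 held more P450 reads than the other 11 together (105143 in all). Per 1000000 reads of the library these are 169, 22.4, 57.3 and 117 at 6h, then 201, 1095, 643 and 2470 at Day1, then 5503, 38.5, 10.003 and 221 at Day7. The 3 groups overlap in reads. Per 1000000 reads every Day1 library lies above every 6h library, and Day7 overlaps with both. Between 8 and 13 P450 genes had reads in a 6h library, between 31 and 42 in a Day1 library, and 49, 24, 13 and 45 in Day7 replicates 1 to 4.

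Detection was patchy, most of all at 6h. Of 288 pairs of a gene and a 6h library, 40 had reads, and 17 of those had more than 50 reads. Only Cyp2s1, Cyp4f13 and Cyp4f18 had reads in all 4 libraries at 6h. At Day1, 19 genes had reads in all 4 libraries, and at Day7 5 did (Cyp2e1, Cyp2f2, Cyp2c69, Cyp2a5 and Cyp2b10). No read was found at 6h for 37 of the 60 genes with reads, and 26 of these had reads at both later times. Single 6h libraries nevertheless held many reads of a gene absent from the others. Cyp1a2, which oxidises caffeine and aromatic amines, had 126 reads in 6h replicate 1, 203 in replicate 4 and 0 in the other 2, and Cyp2j6, an arachidonic acid epoxygenase, had 290 of its 294 6h reads in replicate 1. Cyp1b1, a P450 of stromal and steroid-responsive tissues, had 68 of its 69 reads in 6h replicate 2.

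**Figure D1:**
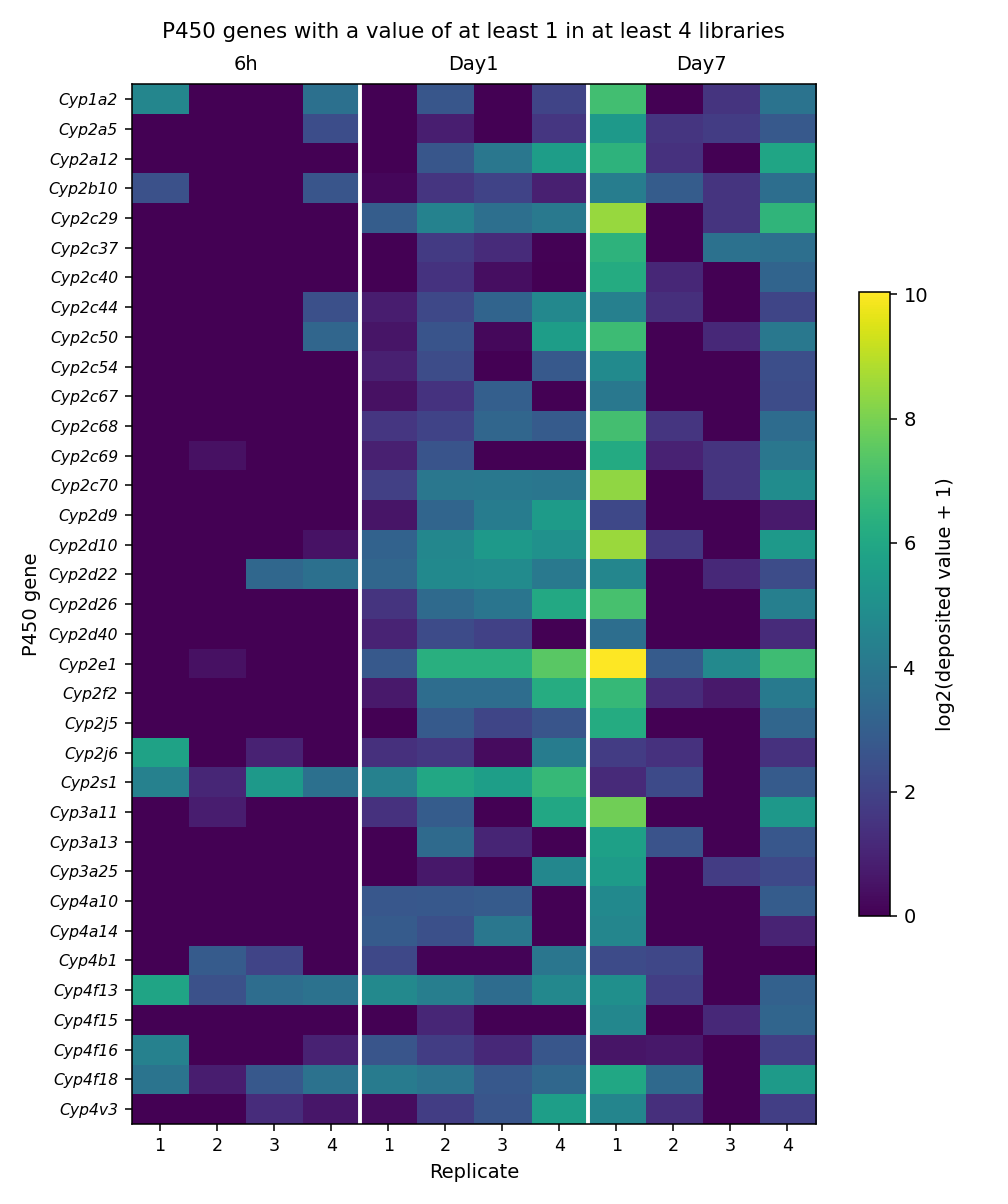
Deposited values of the 35 P450 genes that reached a value of 1 in at least 4 libraries, as log2(value + 1), with a gene in each row, a library in each column and white lines between the time groups. Most rows are dark at 6h and brighter at Day1, and Day7 replicate 1 is the brightest column, while Cyp2s1, Cyp4f13 and Cyp4f18 show colour in all 6h libraries.

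A gene was tested when its value was at least 1 in at least 4 libraries, which 35 of the 72 genes and 11211 genes in all did. Of the other P450 genes, 25 had reads but stayed below this filter. Many of the 35 passed only through their later libraries (18 of them had no read at 6h, against 1.77% of all tested genes), so the counts below describe them and are not support for a change. The test was limma on log2(value + 1) over all 12 libraries, with p-values adjusted over the 11211 genes by Benjamini-Hochberg at a threshold of 0.05. Differences below are on that log2 scale, as later time minus earlier time. They understate the changes of low genes. Scaling to all reads in place of the deposited values moved the median over all tested genes from 0.52 to 1.55 (Day1 against 6h), from -0.48 to -1.76 (Day7 against Day1) and from 0.13 to -0.20 (Day7 against 6h). The median of the tested P450 genes under it was 2.72, -1.02 and 1.63, so that from Day1 to Day7 it turned from positive to negative and stayed above that of all genes.

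Between 6h and Day1, Cyp2e1 was the only P450 gene that rose by limma. In all, 19 genes rose and none fell among the 11211 (1251 had an unadjusted p under 0.05), so higher calls were 0.169% of the genes tested and 1 of 35 P450 genes. Another 14 P450 genes had an unadjusted p under the threshold without passing the adjusted test. The difference was positive for 33 of the 35 and their median was 1.5, where the median over all tested genes was 0.52. In 8 of the 35 all 4 Day1 values lay above all 4 6h values, which 5.52% of all tested genes showed. These were Cyp2e1, Cyp2d10, Cyp2d26, Cyp2d9, Cyp2c29, Cyp2c70, Cyp2c68 and Cyp2f2. The count of called P450 genes was sensitive to the test, with 0 by edgeR's quasi-likelihood test and 10 by DESeq2, both on the recovered reads. Over all 11211 genes, edgeR called 9 and DESeq2 called 197.

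Between Day1 and Day7, Cyp2s1 was the only P450 gene called by limma, and it fell. Over all genes 403 fell (3.59%) and 245 rose (2.19%), and of the P450 genes 1 fell and 0 rose. An unadjusted p under 0.05 was found for 9 of 35 P450 genes and for 3266 of all 11211 genes. The P450 median was 0.31 against -0.48 over all genes. Groups that did not overlap, with Day7 lower, were found for Cyp2s1 alone of the 35 and for 14.5% of all tested genes. edgeR called 0 P450 genes (9 unadjusted), and DESeq2 called 3, with Cyp2c37 higher and Cyp2d9 and Cyp2s1 lower. Over all 11211 genes, edgeR called 1 (2387 unadjusted) and DESeq2 called 1776, with 525 higher and 1251 lower.

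Between 6h and Day7, Cyp2e1 rose, and it was again the only P450 gene called by limma. Over all genes 68 rose (0.607%) and 31 fell (0.277%). Of the 35 P450 genes 20 had an unadjusted p under 0.05, as had 2020 of all 11211 genes. The median difference was 2.19 against 0.13 over all genes, and 30 of 35 P450 genes were positive. Cyp2e1, Cyp2f2 and Cyp2c69 had all 4 Day7 values above all 4 6h values, as 3.45% of all tested genes did. For Cyp2f2 this rests on 1 read in Day7 replicate 3. edgeR called 6 P450 genes higher (Cyp2e1, Cyp2c29, Cyp2c68, Cyp2c70, Cyp2d10 and Cyp2f2), and DESeq2 called 15 higher and 1 lower (Cyp2s1). Over all 11211 genes, edgeR called 58 higher and 26 lower, and DESeq2 called 279 higher and 796 lower. Asked for any change among the 3 times, limma's moderated F test called Cyp2e1 and Cyp2s1, 2 of 35, where 286 of all genes (2.55%) were called. The 3 comparisons share their libraries in pairs, so they are not independent.

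Cyp2e1 (ENSMUSG00000025479) was the most abundant P450 gene per kilobase of its length at Day1 and Day7. Its deposited value was 0, 0.379, 0 and 0 in 6h replicates 1 to 4, where the 0.379 is a single read. At Day1 it was 6.06, 79.6, 78.9 and 175 in replicates 1 to 4, or 84.8 ± 69.2 (SD, n = 4). At Day7 it was 1044, 6.32, 25.3 and 119, or 299 ± 499 (SD, n = 4). Every Day1 and Day7 library lay above every 6h library, and Day1 and Day7 overlapped. The rise from 6h to Day1 was 5.62 (SE 1.15, adjusted p 0.0374, limma), and from 6h to Day7 it was 6.02 (SE 1.15, adjusted p 0.0161). From Day1 to Day7 the difference was 0.40 (SE 1.15, adjusted p 0.838), and without Day7 replicate 1 it was -0.90. The Day1 call was lost when any 1 of the 6h libraries or Day1 replicate 2, 3 or 4 was left out, with differences of 5.04 to 5.73 in those fits, and the Day7 call when 6h replicate 3 or Day7 replicate 4 was left out. With a term for libraries with Y-linked reads, the Day1 difference was 5.23 and was not called. In the libraries with such reads alone, the values were 0 and 0 at 6h and 79.6, 78.9 and 175 at Day1.

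**Figure D2:**
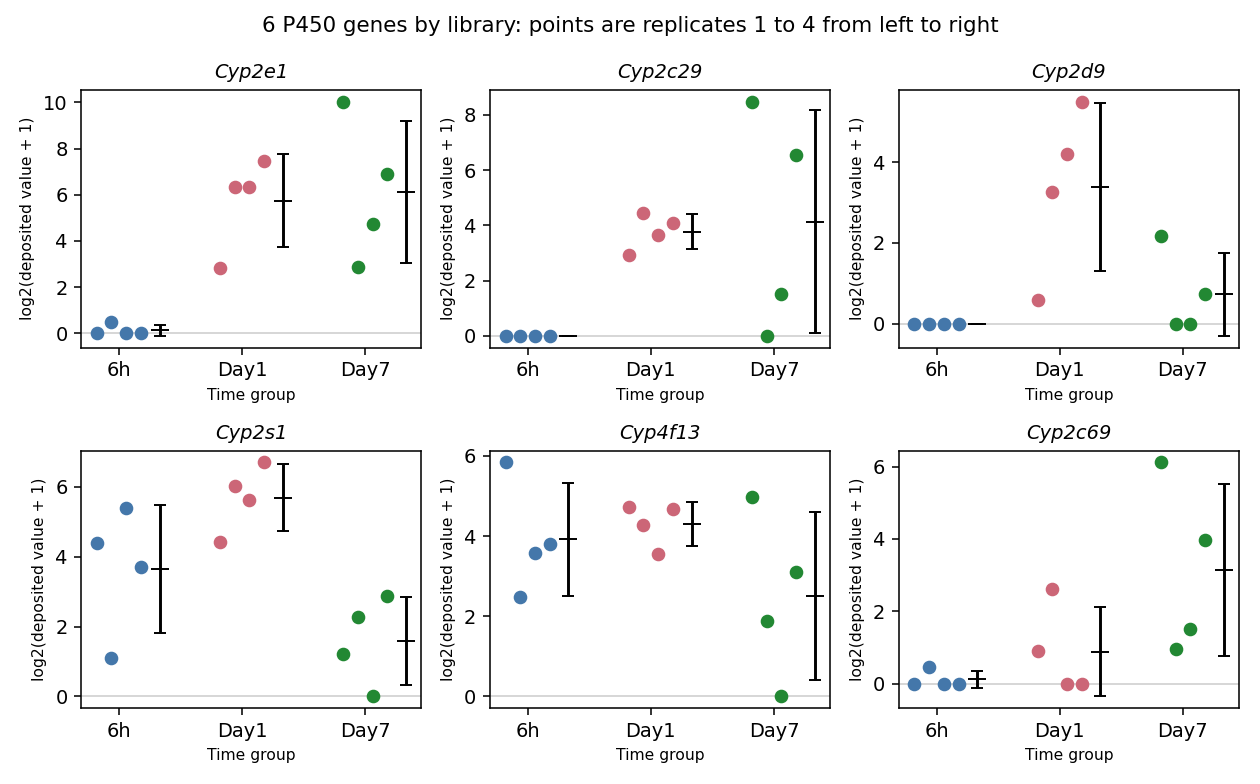
Deposited values of 6 P450 genes as log2(value + 1), with a point for each library (replicates 1 to 4 from left to right) and, beside the points, the mean and SD of the 4 libraries on this scale. Cyp2e1, Cyp2c29 and Cyp2d9 lie at or near 0 in all 6h libraries, while Cyp2s1 and Cyp4f13 do not, and the 4 Day7 points of Cyp2s1 lie below its 4 Day1 points.

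The subfamily 2c genes, which oxidise drugs and turn arachidonic acid into epoxides, held 24589 of the 105143 P450 reads over 14 genes with reads. Cyp2c29, one of these epoxygenases, had no read at 6h. Its values at Day1 were 6.67, 20.8, 11.5 and 15.8, and at Day7 they were 355, 0, 1.85 and 92.8. With a floor of 3 reads over the 6h group, Cyp2c29 was at least 155-fold higher at Day1 in pooled reads (at least 125-fold without Day1 replicate 2). The fitted difference was 3.77 (SE 1.25, adjusted p 0.291), and it was not called by limma. Cyp2c70, which makes the muricholic acids of mouse bile, also had no read at 6h, with 2.72, 14.8, 15.2 and 14.2 at Day1 and 326, 0, 1.85 and 28.6 at Day7. For Cyp2c70 the fitted difference from 6h to Day1 was 3.45 (adjusted p 0.321) and from 6h to Day7 3.69 (adjusted p 0.112). Cyp2c68 lay at 1.98 to 8.80 in the Day1 libraries and at 132, 1.91, 0 and 10.6 at Day7. Cyp2c50 and Cyp2c44 departed from this pattern through 6h replicate 4, which held 149 and 74 reads of them against 0 in the other 6h libraries. Cyp2c37 stood at 0, 2.23, 1.37 and 0.0389 at Day1 and at 87.7, 0, 12.3 and 11.6 at Day7, a difference of 2.72 (SE 0.94, adjusted p 0.0706) that missed the threshold. Cyp2c54, Cyp2c67 and Cyp2c40 had no 6h read and Day1 means of 2.69, 2.34 and 0.523.

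Genes of subfamily 2d, the mouse relatives of the human drug-oxidising CYP2D6, held 16216 reads. Cyp2d10 gave 0, 0, 0 and 0.420 at 6h, then 7.79, 23.9, 41.4 and 32.9 at Day1, then 365, 2.11, 0 and 42.2 at Day7. Its difference from 6h to Day1 was 4.44 (SE 1.23, adjusted p 0.168), with no overlap between the groups. Cyp2d26 had no 6h read and stood at 1.85, 10.1, 14.0 and 64.7 at Day1, at least 266-fold above the 6h floor in pooled reads (at least 94.6-fold without Day1 replicate 4). Its fitted difference was 3.73 (adjusted p 0.291). Cyp2d22 was already present at 6h, at 0, 0, 9.17 and 12.2. It stood at 9.02 to 27.6 at Day1 and at 23.5, 0, 1.23 and 3.99 at Day7, and none of its differences passed the adjusted test (lowest adjusted p 0.157, Day7 against Day1). Cyp2d40 had no 6h read and a Day1 mean of 1.93 ± 1.77 (SD, n = 4).

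Of the other hepatic genes, Cyp2f2, which activates naphthalene in liver and in club cells of the airway, had no read at 6h, 0.618, 10.9, 11 and 72.6 at Day1 and 103, 1.34, 0.617 and 16.3 at Day7. Both later groups lay above 6h in full, with fitted differences of 3.51 (adjusted p 0.291) and 3.18 (adjusted p 0.150). The value of Cyp2f2 in Day7 replicate 3 is a single read, so its separation at Day7 rests on that read. The club cell marker Scgb1a1 had values of 3.71 and 0.973 in Day1 replicates 1 and 2 and 0 in the other 10 libraries. The 9 club cell and airway markers summed to 350, 98.8, 1.06 and 0 at Day1, to 2.61, 14.4, 2.47 and 0.665 at Day7 and to 0 in every 6h library, and their part in the values of Cyp2f2 was not tested. Cyp3a11, the main drug and steroid hydroxylase of mouse liver, was at 1.73, 6.63, 0 and 64 at Day1 and at 233, 0, 0 and 39.9 at Day7, with 2 reads in all at 6h. Its Day7 difference from 6h of 3.10 did not pass (SE 1.38, adjusted p 0.238). Cyp2a12 had no 6h read and Day1 values of 0, 5.46, 14.9 and 46.9. Cyp2a5, which hydroxylates coumarin, stood at 41.3, 1.91, 2.47 and 5.99 at Day7 and had 69 reads in 6h replicate 4. Its difference from Day1 to Day7 was 2.28 (adjusted p 0.0848). Cyp2b10, the phenobarbital-inducible P450, stood at 4.67, 0, 0 and 5.22 at 6h and at 18, 6.51, 1.85 and 11.3 at Day7, and its groups overlapped. Cyp1a1, which like Cyp1a2 is induced through the aryl hydrocarbon receptor, had no read in any library.

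Cyp2s1 (ENSMUSG00000040703), a P450 known from skin, airway and gut epithelium, behaved otherwise. Its values were 19.98, 1.14, 41.3 and 12.05 in 6h replicates 1 to 4 and 20.4, 63.7, 48.0 and 103 in Day1 replicates 1 to 4. At Day7 it fell to 1.31, 3.83, 0 and 6.32, and every Day7 library was below every Day1 library. The means were 18.6 ± 17.0, 58.9 ± 34.7 and 2.86 ± 2.80 (SD, n = 4 each). From Day1 to Day7 the difference was -4.10 (SE 0.93, adjusted p 0.0247, limma), and from 6h to Day1 it was 2.04 (SE 0.93, adjusted p 0.430). The fall was not called when Day1 replicate 2, 3 or 4 or Day7 replicate 2 or 3 was left out, with differences of -4.33 to -3.57 in those fits. With a term for libraries with Y-linked reads the difference of Cyp2s1 was -2.78 (adjusted p 0.244) and was not called, nor was it by edgeR (-4.21, adjusted p 0.110). Markers of other cells fell over the same interval. Of 12 fibroblast and mesothelial markers 9 were tested and 5 fell from Day1 to Day7 (Msln, Wt1, Col1a2, Lrrn4 and Col1a1), and of 11 keratinocyte markers 5 were tested and Krt14 fell. None of these 6 calls was kept with the Y-linked term or without Day1 replicate 3, and edgeR called 0 of either list (7 and 2 unadjusted), while DESeq2 called 7 and 1 lower. The summed value of the fibroblast and mesothelial list was 470, 18.2, 2541 and 1237 at 6h, 569, 3272, 2045 and 3110 at Day1, and 319, 89.2, 11.1 and 702 at Day7. The keratinocyte genes Krt5, Krt1, Lor, Flg and Ivl were at 0 in every library. The part of such cells in the result for Cyp2s1 was not tested.

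Family 4, the fatty acid and eicosanoid hydroxylases, held 11020 reads over 14 genes with reads and made up 36.6% of all 6h reads of P450 genes, 15.4% of the Day1 reads and 5.77% of the Day7 reads. These pooled shares follow single libraries, with 49.6% in Day1 replicate 1, 36.1% in Day7 replicate 2 and 14.2% at Day7 without replicate 1. Cyp4f13 was the P450 gene with the highest mean per kilobase at 6h. It stood at 56.4, 4.54, 10.9 and 12.9 at 6h, 25.5, 18.5, 10.7 and 24.7 at Day1, and 30.6, 2.68, 0 and 7.65 at Day7, and the 3 groups overlapped (lowest adjusted p 0.206). Cyp4f18, which inactivates leukotriene B4 in neutrophils, stood at 13.4, 0.757, 5.79 and 12.8 at 6h, at 5.76 to 16.9 at Day1, and at 62.3, 9.76, 0 and 43.6 at Day7. The summed neutrophil markers were 139, 18.2, 3.38 and 139 at 6h, 35.8, 24.3, 77.3 and 0.428 at Day1 and 741, 102, 245 and 359 at Day7. Day1 replicate 4, with the lowest of these sums, had Cyp4f18 at 9.22. The part of neutrophils in the values of Cyp4f18 was not tested. Cyp4f16 had a mean of 5.23 at 6h, of which replicate 1 gave nearly all (19.98), and Cyp4b1 means of 2.39, 4.52 and 1.82 over the 3 times. Cyp4a10 and Cyp4a14, whose transcription follows the fatty acid receptor PPAR alpha, had no read at 6h. Cyp4a10 then stood at 5.56, 5.72, 6.29 and 0 at Day1 and Cyp4a14 at 6.43, 4.46, 14.6 and 0. The library without either gene, Day1 replicate 4, had the most P450 reads of its group. It also held 1104 of the 1168 Day1 reads of Cyp4f14, a hepatic leukotriene hydroxylase that stayed below the filter, and 1237 of the 1389 Day1 reads of Cyp4v3.

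At Day7, replicate 1 set nearly every mean. It had the highest Day7 value for 33 of the 35 tested P450 genes (36.3% of all tested genes) and the highest value of all 12 libraries for 26 of 35 (7.87% of all tested genes). The mean at Day7 was above that at Day1 for 25 of the 35 (42.9% of all tested genes), and for 11 of them without that library. Day7 replicate 4 came next, with 45 P450 genes detected. In Day7 replicates 2 and 3, Cyp2e1 was at 6.32 and 25.3 while Cyp2d26, Cyp3a11, Cyp2j5, Cyp4a10 and Cyp4a14 were at 0 in both.

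Markers of hepatocytes were low at 6h, higher at Day1 and uneven at Day7, as P450 reads were, but not in step in every library. The summed P450 value was 192 in 6h replicate 1 and 131 in Day1 replicate 1, where the marker sums were 269 and 2289. All 21 hepatocyte markers had reads and 18 were tested. Alb, Apoa1, Apoh, Fgb and Fgg rose from 6h to Day1, and Ahsg, Ttr, Alb, Apoa2, Apoh and Fgg rose from 6h to Day7. These calls depended on the test. edgeR called Apoh and Fgg at Day1 and Apoh, Fgg and Hpd at Day7, and DESeq2 called 10 and 14 of the 18. With pseudocount 4 or without a filter none of these limma calls was kept, and of the Day1 calls only that of Fgg was kept with the Y-linked term. From Day1 to Day7 0 of 18 were called by limma, edgeR or DESeq2, and 0 had an unadjusted p under 0.05 by any of the 3. Their summed value was 269, 6.44, 58.7 and 377 at 6h, 2289, 3853, 3330 and 7114 at Day1, and 32325, 167, 750 and 10575 at Day7. Alb had 0 to 530 reads in the 6h libraries, 2984 to 45089 at Day1, and 76769, 86, 247 and 4217 at Day7. Set against these markers, the P450 genes had 5.72, 10.002, 10.9 and 13.1 reads per 100 marker reads at Day1 and 12.3, 38.0, 7.48 and 6.32 at Day7, while 6h gave 23.0 to 671 on 17 to 6296 marker reads. Summed adipocyte markers lay between 73.6 and 189 in the 6h libraries, between 43.8 and 136 in those of Day1 and between 110 and 514 in those of Day7, with 0 of 8 tested genes called by limma in any comparison (1, 4 and 1 unadjusted for Day1 against 6h, Day7 against Day1 and Day7 against 6h). edgeR called 0 adipocyte markers, and DESeq2 called Adipoq, Lpl and Retn higher at Day7 than at Day1. The part of liver-derived RNA or cells in the P450 values was not tested.

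**Figure D3:**
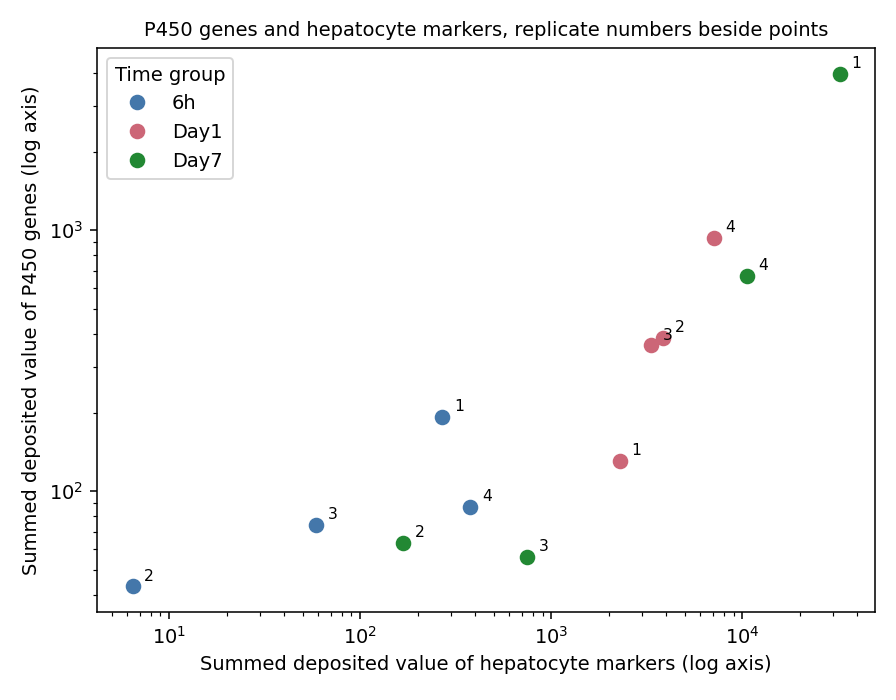
Summed deposited value of the 72 P450 genes against that of 21 hepatocyte markers, both on log axes, with a point for each library and its replicate number beside it. The 4 Day1 libraries and Day7 replicates 1 and 4 lie above a marker sum of 1000, with P450 sums of 131 to 3976. The 4 6h libraries and Day7 replicates 2 and 3 lie below it, with P450 sums of 43.2 to 192, so the P450 sums overlap.

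Some P450 genes differ between male and female mouse liver, and the libraries differ in Y-linked reads. These genes were picked after their values had been seen, so the following is a description. The list of female-predominant genes is not complete, and other choices could give other shares. The male-predominant side rests on 1 gene, Cyp2d9, and is not complete either. Of genes known to be female-predominant, 7 were counted (Cyp2a4, Cyp2b9, Cyp2b13, Cyp2c40, Cyp2c69, Cyp3a16 and Cyp3a44), and as a share of the library's P450 reads they made 7.26%, 4.82%, 3.30% and 9.05% in Day7 replicates 1 to 4. Exact binomial 95% intervals were 7.05% to 7.47% for replicate 1 and 7.84% to 10.4% for replicate 4, and those of replicates 2 and 3 were wide (2.78% to 7.71% and 0.685% to 9.33%). In Day1 replicates 1 to 4 the share was 0.944%, 1.78%, 0.0839% and 0.00418%. At 6h it was 0.877% in replicate 2, from 1 read, and 0% in replicates 1, 3 and 4. All 219 such reads of Day1 replicate 2 came from Cyp2c69 (162) and Cyp2c40 (57), which share sequence with each other. Cyp2b9 and Cyp2b13 had no read in the 8 libraries of 6h and Day1, and 844 and 538 reads at Day7. Cyp2a4, a steroid 15-alpha-hydroxylase, had 2 reads at Day1 and 859 at Day7.

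Cyp2d9, the male-predominant testosterone 16-alpha-hydroxylase, showed the opposite. Its values were 0 in all 6h libraries, 0.494, 8.67, 17.5 and 44.1 at Day1, and 3.51, 0, 0 and 0.665 at Day7. The differences of 3.39 from 6h to Day1 (SE 0.85, adjusted p 0.113) and -2.66 from Day1 to Day7 (SE 0.85, adjusted p 0.0576) did not pass. With the Y-linked term the latter was -1.46 (SE 1.03, adjusted p 0.490). Per 1000 Cyp2e1 reads of the same library, Cyp2d9 had 109, 222 and 252 reads in Day1 replicates 2 to 4, which had Y-linked reads. It had 81.6 in Day1 replicate 1 (4 reads, no Y-linked read) and 3.36 and 5.59 in Day7 replicates 1 and 4. Since no Day7 library had Y-linked reads and 3 of 4 Day1 libraries did, time and the presence of Y-linked reads are largely confounded for these genes.

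**Figure D4:**
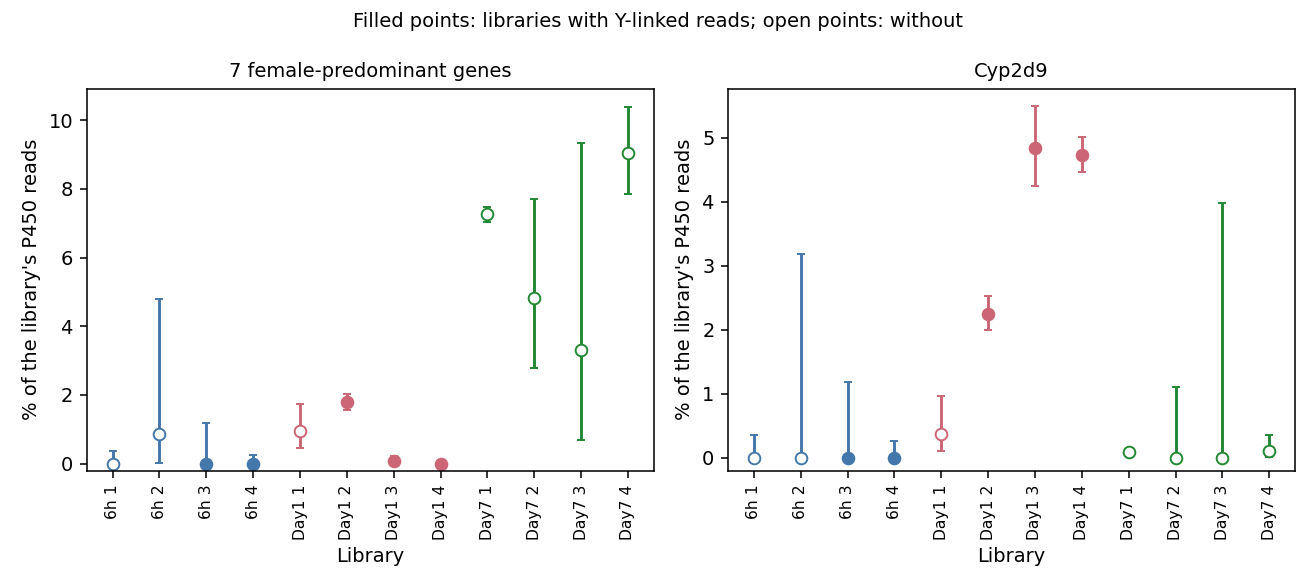
Reads of 7 female-predominant P450 genes (left) and of Cyp2d9 (right) as a percentage of each library's P450 reads, with exact binomial 95% intervals that cover counting error only. Filled points are libraries with Y-linked reads and open points those without, and the female-predominant share is highest in the 4 open Day7 points, at 3.30% to 9.05%. The other open points (6h replicates 1 and 2 and Day1 replicate 1) lie at 0%, 0.877% and 0.944%, below the filled point of Day1 replicate 2 at 1.78%.

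Close relatives limit what the values of single genes mean. In GENCODE M21 transcripts, 69 of the 72 genes were matched, and 24 had over 20% of their 50-base windows in common with another gene. Cyp2c40 (72.1%), Cyp2c69 (54.8%) and Cyp2c67 (52.8%) had over 50%, and Cyp2a4 and Cyp2a5 had 38.8% and 40.8%. How the authors counted reads that match several genes is not given in the sources used here, so values of these genes are uncertain. Cyp2e1 (4.82%), Cyp2s1 (6.78%), Cyp2c29 (2.08%) and Cyp2c70 (0%) share little.

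No partner gene of the P450 enzymes passed the test, which does not show that they stayed level. Of 10 genes for electron supply and haem synthesis, all tested, 0 were called by limma in any comparison (1, 1 and 3 unadjusted for Day1 against 6h, Day7 against Day1 and Day7 against 6h), with 0 by edgeR and 2 by DESeq2 (Fdx1 and Fdxr, lower at Day7 than at 6h). Por, the reductase that feeds electrons to the P450 enzymes of the endoplasmic reticulum, ranged from 17.8 to 80.3 in the 6h libraries, from 9.76 to 223 in those of Day1 and from 14.4 to 210 in those of Day7. Cyb5, cytochrome b5, ranged from 10.5 to 900.4 in the 6h libraries, from 48.1 to 299 in those of Day1 and from 894 to 1220.4 in those of Day7 (adjusted p 0.062 for Day7 against Day1). Of 22 regulators of P450 genes 20 had reads and 10 were tested. Dbp (-3.54, adjusted p 0.0489) and Tef (-3.46, adjusted p 0.0375), transcription factors of the circadian clock output, fell from Day1 to Day7. Both calls were lost without Day1 replicate 2, 3 or 4 or Day7 replicate 2, 3 or 4, and with the term for Y-linked reads (-0.98 and -1.96). Neither gene was called without a filter or by edgeR (adjusted p 0.192 and 0.180), while DESeq2 called both (adjusted p 0.0295 and 0.0183). The liver regulators Hnf4a, Nr1i2 (PXR) and Nr1i3 (CAR) had 129, 30 and 111 reads over the 12 libraries and stayed below the filter. Of 34 conjugating and other detoxifying enzymes 33 had reads and 22 were tested. 0 were called by limma (8, 6 and 7 unadjusted in the same order), while edgeR called Adh1, Ugt2b5 and Ugt2b36 higher at Day7 than at 6h. DESeq2 called these 3 higher at Day1 than at 6h, Nqo1 higher at Day7 than at Day1, and these 3 and Ugt2b34 higher at Day7 than at 6h. The glucuronosyltransferases Ugt2b5 and Ugt2b36 stood at 6.43 to 51.0 and at 0.607 to 13.5 at Day1, against 0 to 0.379 and 0 at 6h. Of 21 P450 genes of other families 8 were tested, and Tbxas1, the thromboxane synthase of platelets, rose from Day1 to Day7 by 4.81 (adjusted p 0.0259) while 7 of 10 platelet markers rose too. Its call was lost without Day1 replicate 2, 3 or 4 or Day7 replicate 2, 3 or 4, and with the Y-linked term (4.79), under which 0 of all genes and so no platelet marker was called. Tbxas1 was also not called without a filter, scaled to all reads (2.77) or to reads outside haemoglobin (3.11), or by edgeR (4.58, adjusted p 0.110). DESeq2 called it (4.27, adjusted p 0.00301). edgeR called 0 of the 10 platelet markers (10 unadjusted) and DESeq2 9 higher. Summed monocyte and macrophage markers lay between 263 and 606 in the Day1 libraries and between 1590 and 3183 in those of Day7. Limma called 0 of these 11 markers over that interval, and their median difference was -0.71. The part of platelets or of other cells in the values of Tbxas1 was not tested. Cyp11a1, which starts steroid synthesis, stood at 1176 in 6h replicate 2, with 0.747, 79.4 and 133 in the other 6h libraries and 0 to 19.3 later. That library was also the highest for Hsd3b1 (832) and Fdx1 (412). DESeq2 called Cyp11a1 lower at Day1 and at Day7 than at 6h, and limma and edgeR did not call it.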

How the data were processed

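Total RNA of iChip-enriched mouse blood was sequenced in 12 libraries (3 groups of 4, from the sample titles). The deposited table gives a signal per gene that the authors named CPM. Its columns sum to between 351981 and 5611150, so it is not plain CPM, and every value (100%) is a whole multiple, within 0.001 reads, of what 1 read is worth in that library. Reads were recovered that way. STAR 2.7.10, HTSeq 2.0.1 and mm9 are named in the submitters' processing notes, while no source used here names the annotation or the scaling step. Library sizes from edgeR's TMM scaling of the recovered reads were proportional to the deposited scaling in all 12 libraries. TMM scaling, 1 of the 26 alternatives, therefore nearly repeated the main fit. It called 19, 666 and 102 genes for Day1 against 6h, Day7 against Day1 and Day7 against 6h, where the main fit called 19, 648 and 99. The test planned for this kind of value was limma 3.58.1 (R 4.3.3, trended variance) on log2(value + 1), with a filter of at least 1 in at least 4 libraries, time as the sole factor and Benjamini-Hochberg adjustment. edgeR 4.0.16 and DESeq2 1.42.0 ran on the recovered reads as alternatives, and adjusted p-values that DESeq2 left empty were kept empty and entered no count. Other alternatives were pseudocounts of 0.25 and 4, other filters and scalings, 2-group fits, a replicate block, a Y-linked term and leaving out libraries.

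The genes to name were Cyp2e1, the tested P450 genes up to 30 by reads, called genes and the 6 with most reads below the filter. Of the other lists, they were up to 4 called genes per comparison and, for marker lists, those with most reads. This was not kept to throughout. All called hepatocyte markers (5 from 6h to Day1, 6 from 6h to Day7) and fibroblast and mesothelial markers (5 from Day1 to Day7) are named. Called platelet markers are not named. Of the P450 genes, Cyp3a13, Cyp2c38 and Cyp2a22 meet the rule and are not described, while Cyp4b1, Cyp4f16, Cyp2c67 and Cyp2d40 fall outside it and are described. Where text singles out other genes (Cyp1b1, the sex-predominant genes, Cyp11a1, Hsd3b1, liver regulators, low marker genes) they were picked after their values were seen. The members and all lists were chosen with earlier results of these data known. Fold differences are given only for P450 comparisons with an unadjusted p under 0.05 and for Cyp2e1. That limit was set after the fits had been seen.

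Intervals and the floor of 3 reads cover counting error only. The limma fit was tested on simulated counts of 11211 genes, 200 of them changed (100 by 8-fold and 100 by 64-fold). It recovered 13 and 90 of these for Day1 against 6h (0 false calls). For Day7 against Day1 it recovered 19 and 90 (0 false calls), and for Day7 against 6h 16 and 82 (11 false calls). Only genes whose mean value reached 10 were given a change, a level that 15 P450 genes reached. Recovery was not tested for lower genes, so these rates do not cover most of the 35 tested P450 genes. Promoter windows came from RefSeq (GRCm38.p6) and transcripts from GENCODE M21. A result on a withheld item is not reported here.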

Additional observations from a re-analysis of the deposited data

Results flagged for a closer look

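In 81 sets of 4 libraries (a P450 gene at 1 time, or a total), the highest or lowest library was set against the other 3 as the gap to its neighbour divided by the whole range, on the log2(value + 1) scale for genes. The ratio was above Dixon's 95% critical value for 4 values in 12 sets. The chance rate of about 1 in 20 holds for independent sets of continuous, normally distributed values, so it cannot be applied here. In 7 of the 12 sets a single library had reads of the gene, which fixes the ratio at 1, and the sets share libraries. The count of 12 is therefore a description, and no excess over chance is drawn from it. At 6h the ratio was 1 for Cyp2e1, Cyp2d10, Cyp3a11, Cyp2c50, Cyp2c44, Cyp2c69 and Cyp2a5, since a single library had reads of the gene and the other 3 had none. For Cyp2e1 and Cyp2c69 this was 1 read each, for Cyp3a11 2 reads, and for Cyp2c50 149 reads. Cyp2j6 at 6h had a ratio of 0.831, with 290 reads in replicate 1. At Day1, Cyp2c70 (0.958) and Cyp4a10 (0.947) had a low library, replicate 1 for the former and replicate 4 for the latter, and Cyp3a25 (0.861) had a high one, replicate 4 with 619 of its 637 reads. The P450 reads per library total at Day7 gave 0.962, from replicate 1.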

How the results depend on the processing

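Of the P450 genes limma called 1 from 6h to Day1, 1 from Day1 to Day7, 1 from 6h to Day7 and 2 at any time, and of all genes 19, 648 and 99 in the first 3. The causes of the changes below were not tested, apart from the fewer libraries or other genes that some settings use by construction. For Day1 against 6h, P450 calls were 0 with pseudocount 4, without a filter, with a mean of at least 10, with the Y-linked term, without the 2 libraries with the fewest genes, and by edgeR. They were 9 scaled to all reads, 6 scaled to reads outside haemoglobin, 4 in the 2-group fit and 10 by DESeq2, and 0 to 2 with 1 library left out. Calls over all genes were 0 with pseudocount 4 and without a filter, 7 with a mean of at least 10, 1270 scaled to all reads, 262 outside haemoglobin, 87 in the 2-group fit, 2 with the Y-linked term, 4 without the 2 libraries, 9 by edgeR and 197 by DESeq2. With 1 library left out they were 2 (6h replicate 3) to 64 (Day7 replicate 1).

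For Day7 against Day1, P450 calls were 0 without a filter, with the Y-linked term and by edgeR, 2 with median-of-ratios scaling, 5 scaled to all reads, 5 outside haemoglobin and 3 by DESeq2, and 0 to 2 with 1 library left out. Calls over all genes were 57 without a filter, 4063 scaled to all reads, 3716 outside haemoglobin, 1892 in the 2-group fit, 0 with the Y-linked term, 416 without the 2 libraries, 1 by edgeR and 1776 by DESeq2. With 1 library left out they were 3 (Day1 replicate 3) to 1185 (6h replicate 1).

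For Day7 against 6h, P450 calls were 0 with pseudocount 4, without a filter and scaled to all reads, 6 by edgeR and 16 by DESeq2, and 0 to 5 with 1 library left out. Calls over all genes were 5 with pseudocount 4, 13 without a filter, 0 scaled to all reads, 38 outside haemoglobin, 7 in the 2-group fit and 1075 by DESeq2. With 1 library left out they were 3 (6h replicate 3) to 695 (6h replicate 4). At any time, P450 calls were 1 with pseudocount 0.25, with the Y-linked term, without the 2 libraries and by edgeR, 0 with pseudocount 4 and without a filter, 9 scaled to all reads, 10 outside haemoglobin and 10 by DESeq2, and 1 to 4 with 1 library left out.

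Cyp2e1 was called from 6h to Day1 in 13 of 26 alternatives (adjusted p 4.929e-08 to 0.363). Its difference of 5.62 was not called at 3.86 (pseudocount 4), 5.62 (without a filter, and with a mean of at least 10), 5.23 (Y-linked term), 5.58 (without the 2 libraries) and 10.37 (edgeR), and was 5.04 to 6.59 with 1 library left out. From 6h to Day7 it was called in 21 of 26 (adjusted p 6.118e-11 to 0.324), and not at 4.27 (pseudocount 4), 6.02 (without a filter) or 5.08 (all reads), with 4.72 to 7.10 with 1 library left out. From Day1 to Day7 its 0.40 reversed to -1.66 (all reads) and -1.42 (outside haemoglobin), and lay between -0.90 and 1.49 with 1 library left out. Cyp2s1 from Day1 to Day7 was called in 18 of 26, at -5.78 to -2.78 (adjusted p 0.000326 to 0.244). For the 40 P450 comparisons with an unadjusted p under 0.05 other than those of Cyp2e1, 886 of 953 alternative values kept direction and side of the threshold, 59 became called, and 8 lost the call, all for Cyp2s1 from Day1 to Day7. Of 47 further P450 comparisons, whose differences are not printed, 25 changed sign under some alternative. For 21 called comparisons of other genes, 198 of 546 values lost the call and 0 reversed.

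Replicate numbers did not pair the libraries: over 12 pairs of libraries that share a number, the correlation of deviations was -0.23 to 0.12, and 1 library correlated best with its own number. With the number as a block, P450 calls were 1, 1 and 1 in the 3 comparisons and 4 at any time, and calls over all genes were 45, 571 and 156. A gene with 0 reads may be absent or below what the depth can show, and 1 read is worth more in some libraries than in others.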
